A study of Mus musculus with 6 samples.

Results

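The genes described here are 54 regulators of embryonic pattern, most of them homeobox genes, that are best known for specifying regions of the brain and spinal cord, muscle, skeleton, kidney, heart, gut or pancreas. They were chosen by name, as the listed Pax, Nkx, Dlx, Irx, Lhx, Lmx, En, Gbx, Otx, Lbx, Dbx, Evx, Gsx, Vsx and Mnx genes, and all 54 matched among the 21887 protein-coding genes of RefSeq on the assembled chromosomes. The chromatin was that of sensory neurons sorted from mouse dorsal root ganglia at embryonic day E11.5. The mice carried a Runx3 bacterial artificial chromosome (BAC) with GFP on the background labelled CB6, and the sorted GFP-positive cells are labelled as TrkC proprioceptive neurons, which sense muscle stretch. All samples share this genotype, tissue and stage, so the GFP of the Runx3 transgene sets which cells were kept. The 6 samples form 3 groups of 2: ATAC-seq, which finds open chromatin by where a transposase can cut; chromatin immunoprecipitation of histone H3 acetylated at lysine 27 (H3K27ac), which marks promoters and enhancers in use; and input DNA, which was not used here.

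The values are positions only. Each assay has 1 consensus peak list over its 2 samples, with 43652 ATAC peaks (median width 217 bp) and 19924 H3K27ac peaks (median width 1036 bp) on the assembled chromosomes. No signal, read number or depth per sample is known here, so the replicates cannot be compared with each other and no difference was tested. Members are described by counts, beside the same counts over all protein-coding genes, and 95% Wilson intervals of shares cover counting error only. The samples are bulk preparations, so a peak carried by few of the sorted cells and a weak peak carried by all of them cannot be told apart. As a check of the label, 6 of 8 markers of dorsal root ganglion sensory neurons were open within 1 kb of an annotated gene end. Of these 8, 5 were acetylated there. The shares over all protein-coding genes were 60.4% open and 49.3% acetylated, so counts from 8 markers are a weak check. Runx3 was open at an end without H3K27ac, and Ntrk3, the gene of TrkC, had neither mark at its ends but 7 ATAC and 4 H3K27ac peaks inside. Markers of other cells in or near the ganglion were acetylated at an end in 4 of 4 cases for glia and neural crest (Fabp7, Erbb3, Sox10 and Foxd3), 1 of 5 for motor neurons, 1 of 5 for muscle and sclerotome, 0 of 4 for endothelium and 1 of 4 for blood. In the same order, 2 of 4, 3 of 5, 4 of 5, 1 of 4 and 1 of 4 were open at an end. Openness thus did not set the sensory markers apart from those of muscle and sclerotome.

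A homeobox encodes the homeodomain, a protein fold that binds short AT-rich DNA sites, and combinations of homeodomain factors give cells their position and type along the body and neural tube. Among the members, Pax1 and Pax9 encode a paired domain without a homeodomain, and Pax2, Pax5 and Pax8 keep part of one. Sensory neurons of the ganglion descend from the neural crest and use other homeobox genes, such as Isl1 and Pou4f1. Regulators of early pattern often lie in regions with few other genes and have promoters rich in CpG, a C followed by a G. Lysine 27 of histone H3 can carry acetyl groups or, in silent genes, methyl groups placed by Polycomb complexes, and the methyl marks were not analysed here.

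RefSeq promoters, from 250 bases before to 50 after a gene's start, were listed for 40 of the 54 members. The 5 that follow are examples from genes with and without a peak at an end, and capitals mark each CpG. All 5 hold more CpG than the median member, and the members ran from 4 (Lhx8) to 40 (Nkx6-1). They are the 2 listed members with the most ATAC-covered bases at an end and no H3K27ac (Lhx2 and Gsx2), the only listed member with H3K27ac at an end (Nkx6-1), and the 2 with neither mark at an end and the most distal ATAC peaks (Lmx1b and Pax5). Positions are on GRCm38, the assembly of mm10, counted from 1: chr2:38339031-38339330 on the plus strand (Lhx2), chr5:75075351-75075650 plus (Gsx2), chr5:101664662-101664961 minus (Nkx6-1), chr2:33641049-33641348 minus (Lmx1b) and chr4:44710645-44710944 minus (Pax5).
Lhx2: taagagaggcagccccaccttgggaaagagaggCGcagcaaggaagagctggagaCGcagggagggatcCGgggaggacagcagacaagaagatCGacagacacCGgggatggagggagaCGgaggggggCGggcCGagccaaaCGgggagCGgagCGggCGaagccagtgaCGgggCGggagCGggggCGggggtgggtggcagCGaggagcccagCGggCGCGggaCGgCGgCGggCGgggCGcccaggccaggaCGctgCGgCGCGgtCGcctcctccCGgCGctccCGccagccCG
Gsx2: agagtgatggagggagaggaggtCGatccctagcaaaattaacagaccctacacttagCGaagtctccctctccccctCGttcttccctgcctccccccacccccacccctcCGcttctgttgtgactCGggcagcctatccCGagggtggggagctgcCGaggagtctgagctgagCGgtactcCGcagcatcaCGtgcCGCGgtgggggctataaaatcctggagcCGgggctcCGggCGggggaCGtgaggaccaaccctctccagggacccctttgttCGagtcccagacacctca
Nkx6-1: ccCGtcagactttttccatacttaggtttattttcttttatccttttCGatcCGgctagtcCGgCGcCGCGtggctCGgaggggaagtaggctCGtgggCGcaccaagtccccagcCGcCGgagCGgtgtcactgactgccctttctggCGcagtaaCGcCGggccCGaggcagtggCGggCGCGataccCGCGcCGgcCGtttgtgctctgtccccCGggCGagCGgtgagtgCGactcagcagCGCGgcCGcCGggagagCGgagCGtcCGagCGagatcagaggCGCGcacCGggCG
Lmx1b: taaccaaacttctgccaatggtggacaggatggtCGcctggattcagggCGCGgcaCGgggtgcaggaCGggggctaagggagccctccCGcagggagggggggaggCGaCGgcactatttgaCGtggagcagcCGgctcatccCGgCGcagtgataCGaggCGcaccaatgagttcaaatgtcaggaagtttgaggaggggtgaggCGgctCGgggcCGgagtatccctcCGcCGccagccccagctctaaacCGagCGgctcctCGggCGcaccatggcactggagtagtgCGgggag
Pax5: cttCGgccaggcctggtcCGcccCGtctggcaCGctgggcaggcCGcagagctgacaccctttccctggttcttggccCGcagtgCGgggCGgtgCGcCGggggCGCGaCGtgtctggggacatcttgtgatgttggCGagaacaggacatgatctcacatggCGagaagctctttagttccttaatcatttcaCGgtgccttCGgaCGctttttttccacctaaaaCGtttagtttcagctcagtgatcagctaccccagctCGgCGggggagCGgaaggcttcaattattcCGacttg

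These promoters held 34 (Lhx2), 17 (Gsx2), 40 (Nkx6-1), 24 (Lmx1b) and 23 (Pax5) CpG. An ATAC peak lay on the printed bases of Lhx2 and Gsx2, and no H3K27ac peak lay on any of the 5.

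At the gene ends, most open members lacked acetylation. A gene was scored as open or acetylated when a peak shared at least 1 bp with a window reaching 1 kb to both sides of one of its annotated ends. Of 54 members, 33 (61.1%) were open, against 60.4% of all protein-coding genes, so the share of open members was near that of all genes. With the wider 50% of each peak list it was 21 of 54 members (38.9%), against 54.3% of all genes. By contrast, 3 members (5.56%) were acetylated at an end, against 49.3% of all genes. In all, 31 members (57.4%, interval 44.2 to 69.7) were open without H3K27ac, against 12.7% of all genes. Seen from the open genes, 31 of 33 members (93.9%, interval 80.4 to 98.3) had no H3K27ac, against 20.9% of all 13223 open genes. The remaining 20 members (37.0%) had neither mark at an end, against 38.1% of all genes.

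**Figure D1:**
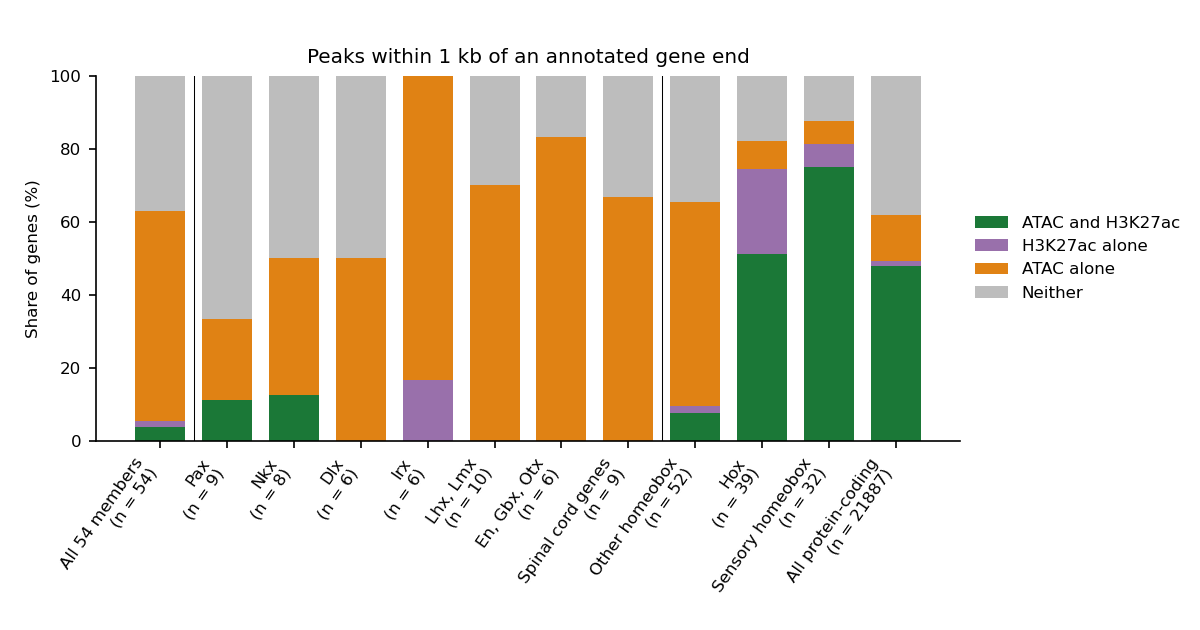
Share of genes (%) by the peaks within 1 kb of either annotated end, for all 54 members, their 7 families, 3 other homeobox lists and all 21887 protein-coding genes; each bar adds up to all genes of its list. ATAC alone makes up 57.4% of the members and 12.7% of all genes, and H3K27ac, with or without ATAC, reaches 1 member each of the Pax, Nkx and Irx families.

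Counting peaks in place of genes largely restated this result and is no separate support for it. At member ends lay 40 ATAC peaks, 1 each at 26 members and 2 each at Nkx2-3, Dlx6, Irx3, En1, Otx1, Gsx2 and Lhx2. Of these 40, 38 lay at members without H3K27ac at an end, a state that leaves little room for overlap. Over all genes in that state, 18 of 3109 ATAC peaks at ends overlapped H3K27ac (0.579%). None of the 40 overlapped an H3K27ac peak, which allows a share of up to 7.5% when taken as 3 peaks of 40 (the Wilson interval reaches 8.76%), while 11003 of 15112 ATAC peaks at all gene ends did (72.8%, interval 72.1 to 73.5). The ATAC peaks at member ends were 113 to 489 bp wide with a median of 228 bp, and those at all gene ends had a median of 365 bp. Peaks without H3K27ac at all gene ends had a median of 244 bp, but these include peaks at genes with both marks, where their median was 189 bp. At genes open without H3K27ac at an end, the median was 225 bp for the 38 member peaks. It was 267 bp for the 3109 peaks of all such genes, so member peaks were narrower in that state. The narrowest peak at member ends belonged to Lhx5, a factor of spinal and brain interneurons, and the widest to Gbx1, of the dorsal spinal cord.

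Scoring starts alone gave a similar picture for the 40 members with a listed start. An ATAC peak lay within 1 kb of a start in 23 of them (57.5%), against 62.3% of 17492 genes with a listed start. H3K27ac lay there in 1 member, Nkx6-1 (2.5%), against 51.6% of these genes. Pax9 and Dlx1 were open at a listed start although their outer annotated ends, which include predicted transcripts, were not, and Nkx2-9, Irx4 and Evx2 were open at an annotated end but at no listed start. On the 300 promoter bases themselves an ATAC peak lay in 14 of 40 members (35.0%) and 57.6% of all genes, and H3K27ac lay in 0 of 40 members and 46.9% of all genes.

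The Pax genes had the lowest share of open members of the 7 families, 33.3%, followed by Nkx with 4 of 8 and Dlx with 3 of 6. Of 9 members, 3 were open at an end and 6 had neither mark, yet 8 held at least 1 ATAC peak inside the gene, 20 in all. Pax1, which acts in the sclerotome that forms the vertebrae, had 1 ATAC peak of 153 bp at its ends, and Pax2, of kidney, midbrain and spinal interneurons, had 1 of 230 bp. Neither of these genes had H3K27ac at an end or inside. Pax5, a factor of B cells and the midbrain, had no peak at its ends, 7 ATAC peaks inside and 10 distal ATAC peaks. Pax7 (dorsal neural tube and muscle stem cells) had 3 ATAC peaks inside and 8 distal ones, and Pax6 (eye, forebrain and pancreas) had 2 inside and 6 distal. No H3K27ac lay at the ends or inside of Pax5, Pax6 or Pax7. Pax9 (pharyngeal pouches and sclerotome) held 2 ATAC peaks inside, Pax8 (thyroid and kidney) held 1, and Pax4, of pancreatic endocrine cells, held none.

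Pax3 was the exception in this family. It is a gene of the dorsal neural tube, the neural crest and muscle precursors, and the ganglion's own precursors are neural crest. Its upper annotated end carried an ATAC peak of 264 bp at chr1:78197052-78197315 and an H3K27ac peak of 1377 bp at chr1:78195504-78196880. These lay 172 bp apart and did not overlap. Inside the gene, 7.49 kb from the same end, an ATAC peak of 251 bp lay within a second H3K27ac peak of 1227 bp. Acetylation at Pax3 stood beside that at 4 of 4 glial and neural crest markers, whose part in it was not tested.

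Of the 8 Nkx genes, 4 were open at an end and 1 was acetylated. Nkx6-1, which marks ventral spinal progenitors and pancreatic beta cells, had an H3K27ac peak of 854 bp at chr5:101663499-101664352, and its ATAC peak of 257 bp lay 939 bp away. It was the only member acetylated within 1 kb of a listed start. Of the 5 motor neuron markers, Isl2, which sensory neurons also express, had H3K27ac at an end. Slc18a3, Olig2 and Mnx1 were open there without it, and Chat had neither mark. Which cells carried the acetylation at Nkx6-1 was not tested. Nkx2-3 (gut mesenchyme and spleen), Nkx2-9 (ventral neural tube) and Nkx6-2 (ventral spinal cord and myelinating glia) were open without acetylation, with 490, 365 and 201 bp of ATAC peaks at their ends. Nkx2-1 (thyroid, lung and ventral forebrain), Nkx2-2 (ventral spinal cord and pancreas), Nkx2-5 (heart) and Nkx3-2 (sclerotome and cartilage) had neither mark there. Nkx2-2 held 4 ATAC peaks inside the gene, whereas Nkx2-5 had no ATAC peak at its ends, inside or among distal elements.

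The Dlx genes, of forebrain interneurons, the jaw arches and limbs, lie in 3 pairs, and in each pair 1 gene was open at an end. These were Dlx2, Dlx3 and Dlx6, with 260, 155 and 529 bp of ATAC peaks, the last the largest cover of any member. This pattern holds for outer annotated ends: at listed starts Dlx1 and Dlx2 were both open, and Dlx3 to Dlx6 had no listed start. No H3K27ac peak lay at an end, inside or in an assigned distal element of any of the 6 Dlx genes, and the nearest one was 73.9 to 98.6 kb from the gene. Of the Irx genes, which pattern the neural tube and heart, Irx1, Irx2, Irx3, Irx4 and Irx6 were open at an end without acetylation there. Irx3, with 2 ATAC peaks at its ends, was the member farthest from any H3K27ac peak, at 427 kb.

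Irx5 was the only member with H3K27ac and no ATAC peak within 1 kb of an end. Its H3K27ac peak of 2280 bp, the widest at any member, lay at chr8:92354960-92357239, 557 bp beyond the lower annotated end. An ATAC peak of 608 bp inside this interval lay 1.70 kb from the end, outside the window, so Irx5 would be open and acetylated with a window of 2.5 kb.

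The Lhx and Lmx genes encode LIM homeodomain factors. Of 10, 7 were open at an end and none was acetylated there. Lhx1 and Lhx5 (interneurons), Lhx3 and Lhx4 (motor neurons and pituitary), Lhx2 (forebrain), Lhx9 (dorsal interneurons and gonad) and Lmx1a (roof plate and midbrain) were open. Lhx2 had the most ATAC cover, 515 bp in 2 peaks, and Lhx5 the least of any open member, 113 bp. Lhx6 and Lhx8, of ventral forebrain neurons, and Lmx1b, of dorsal spinal interneurons and the dorsal limb, had neither mark at an end but held 1, 2 and 5 ATAC peaks inside. Of these 10 genes, Lmx1a and Lmx1b held 1 H3K27ac peak each inside the gene. That of Lmx1b was 112 bp wide, lay 1.67 kb from its upper end and overlapped no ATAC peak.

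En1, En2, Gbx1, Gbx2 and Otx1, which divide the midbrain, hindbrain and forebrain or act in spinal interneurons, were all open without acetylation, and Otx2 had no peak at its ends, inside or among distal elements. Gbx1 had 1 ATAC peak of 489 bp, Otx1 2 peaks covering 394 bp and En1 2 covering 435 bp. The single peak of Gbx2, 207 bp wide, also lay at an end of the uncharacterised gene LOC102637806. Among the 9 genes of spinal progenitors and interneurons, Dbx2, Evx2, Gsx1, Gsx2, Vsx1 and Mnx1 were open without acetylation. Lbx1, of dorsal interneurons and migrating muscle precursors, and Dbx1 and Evx1, of ventral interneurons, had neither mark at an end. Mnx1, a defining motor neuron gene, had 1 ATAC peak of 133 bp there. No H3K27ac peak lay at an end, inside or in an assigned distal element of any of these 9 genes.

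Away from the gene ends, members had more open elements than the median gene, as did homeobox genes of sensory neurons, and few of those of members were acetylated. A distal ATAC peak lay over 1 kb from every gene end, inside or between genes, and was given to the nearest end within 100 kb. Only outer annotated ends counted, so some distal peaks lay within 1 kb of a listed start inside the gene. Among members this held at Pax1, Pax9, Dlx1, Irx2, Lhx4 and Lhx9, and such peaks were not set aside for members or all genes. At least 1 distal ATAC peak was assigned to 48 members (88.9%), against 46.0% of all genes, with a median of 3 per member and 0 per gene. The 168 distal ATAC peaks of members included 7 that overlapped H3K27ac (4.17%, interval 2.03 to 8.35), while 5443 of 24352 did over all genes (22.4%, interval 21.8 to 22.9). At least 1 acetylated distal ATAC peak was assigned to 6 members (11.1%), against 15.4% of all genes. Inside genes the share with H3K27ac was 3.70% of 54 peaks assigned to members and 26.8% of 13778 over all genes, and between genes it was 4.39% of 114 and 16.5% of 10574.

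**Figure D2:**
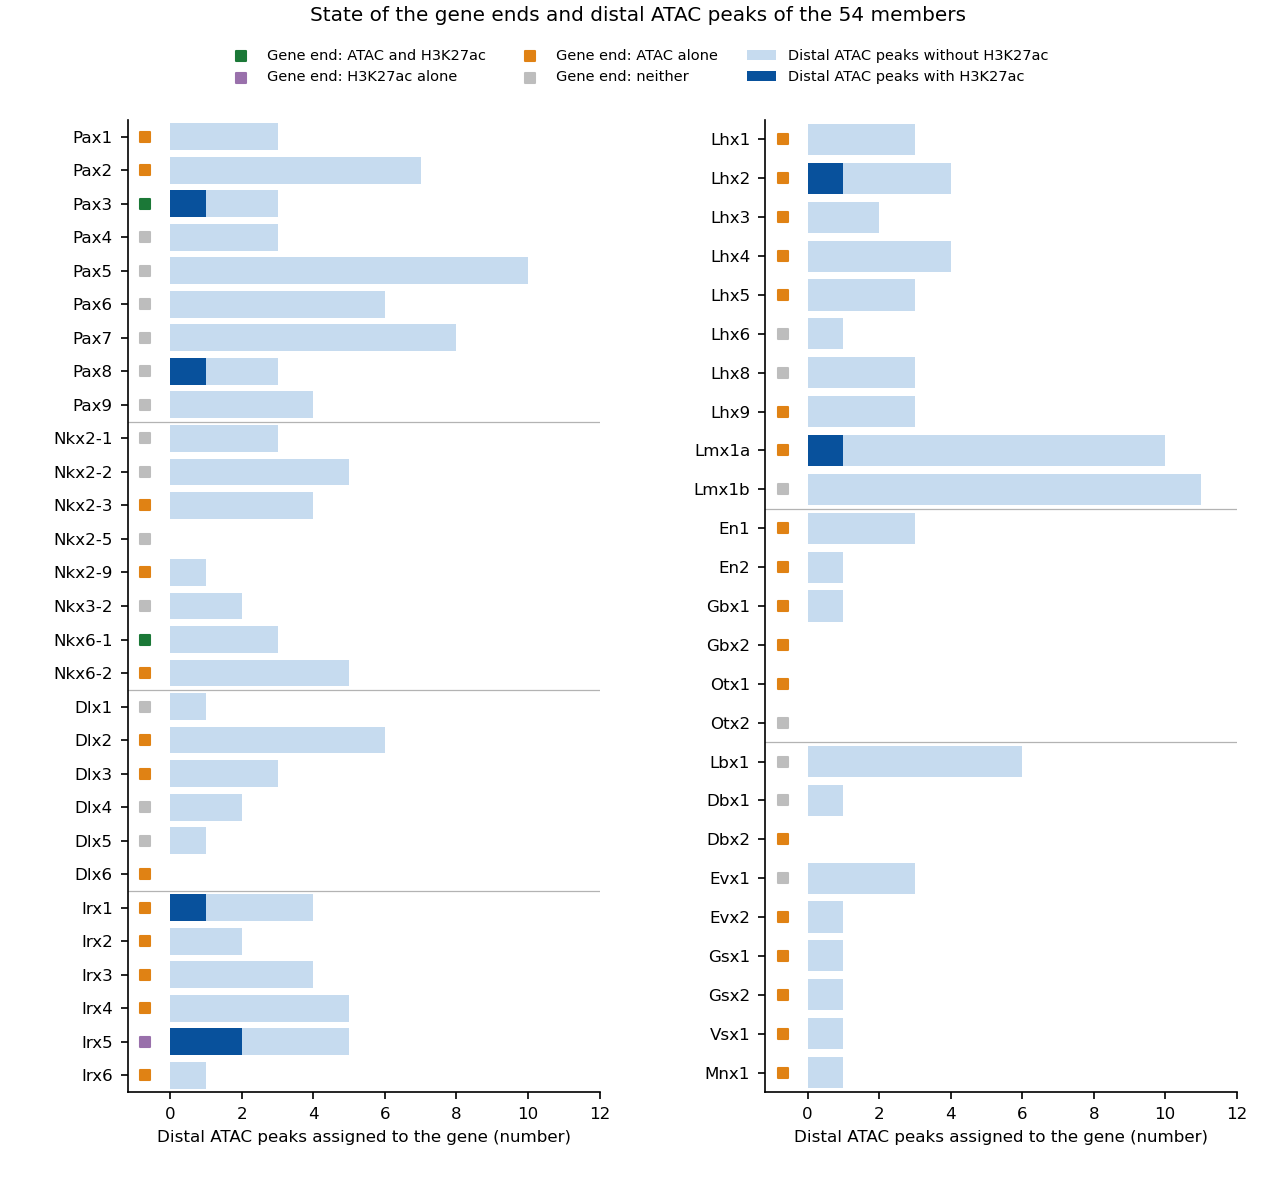
Number of distal ATAC peaks assigned to each of the 54 members, in family order, with those overlapping H3K27ac in dark blue; the square left of each bar gives the state of the gene ends. The longest bars belong to Lmx1b (11), Pax5 and Lmx1a (10 each) and Pax7 (8), and dark blue appears at Pax3, Pax8, Irx1, Irx5, Lhx2 and Lmx1a.

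Lmx1b had 11 distal ATAC peaks, and 76 of all genes had more. Lmx1a and Pax5 followed with 10 each, Pax7 with 8, Pax2 with 7, and Pax6, Dlx2 and Lbx1 with 6. In all, 12 members (22.2%) had 5 or more, against 5.62% of all genes. Nkx2-5, Dlx6, Gbx2, Otx1, Otx2 and Dbx2 had none. Members also had more room for such peaks: the sequence nearest to a member's ends had a median of 108 kb, against 42.8 kb for all genes. Per 100 kb of that sequence, members together had 2.75 distal ATAC peaks and all genes 1.5. Of 54 members, 42 had a density above that pooled value of all genes. The share of all genes with a density above it was not counted. That share can be at most 46.0%, the share of all genes with a distal ATAC peak. By family this density ran from 1.09 for En, Gbx and Otx and 1.95 for Irx to 3.64 for Dlx and 3.78 for the LIM genes. Members with neither mark at an end were not without open chromatin: 18 of these 20 (90.0%) had a distal ATAC peak, against 34.9% of all genes in that state. The 18 include Dlx1, whose only distal peak lay beside its listed start, and Pax9, with a distal peak on its listed start. Distal ATAC peaks of members had a median width of 186 bp, near the 175 bp of all genes.

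The 7 acetylated distal elements belonged to 6 members. Irx5 had 2, the one described above and an ATAC peak of 693 bp at chr8:92460247-92460939, which at 99.1 kb was just within the limit of assignment. Lhx2 had 1 of 521 bp at chr2:38424380-38424900, 54.9 kb from an end, and Pax8 had 1 of 471 bp at chr2:24521399-24521869, 46.0 kb from an end. The element of Irx1 was 266 bp wide, at chr13:72029409-72029674, 65.8 kb from an end. That of Lmx1a was 205 bp wide, at chr1:167803078-167803282 inside the gene, and that of Pax3 is given above. The elements of Irx1, Pax8 and Lhx2 and the farther one of Irx5, 4 of the 7, thus lay outside the gene and over 40 kb from it, and nearest position does not show which gene an element acts on.

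**Figure D3:**
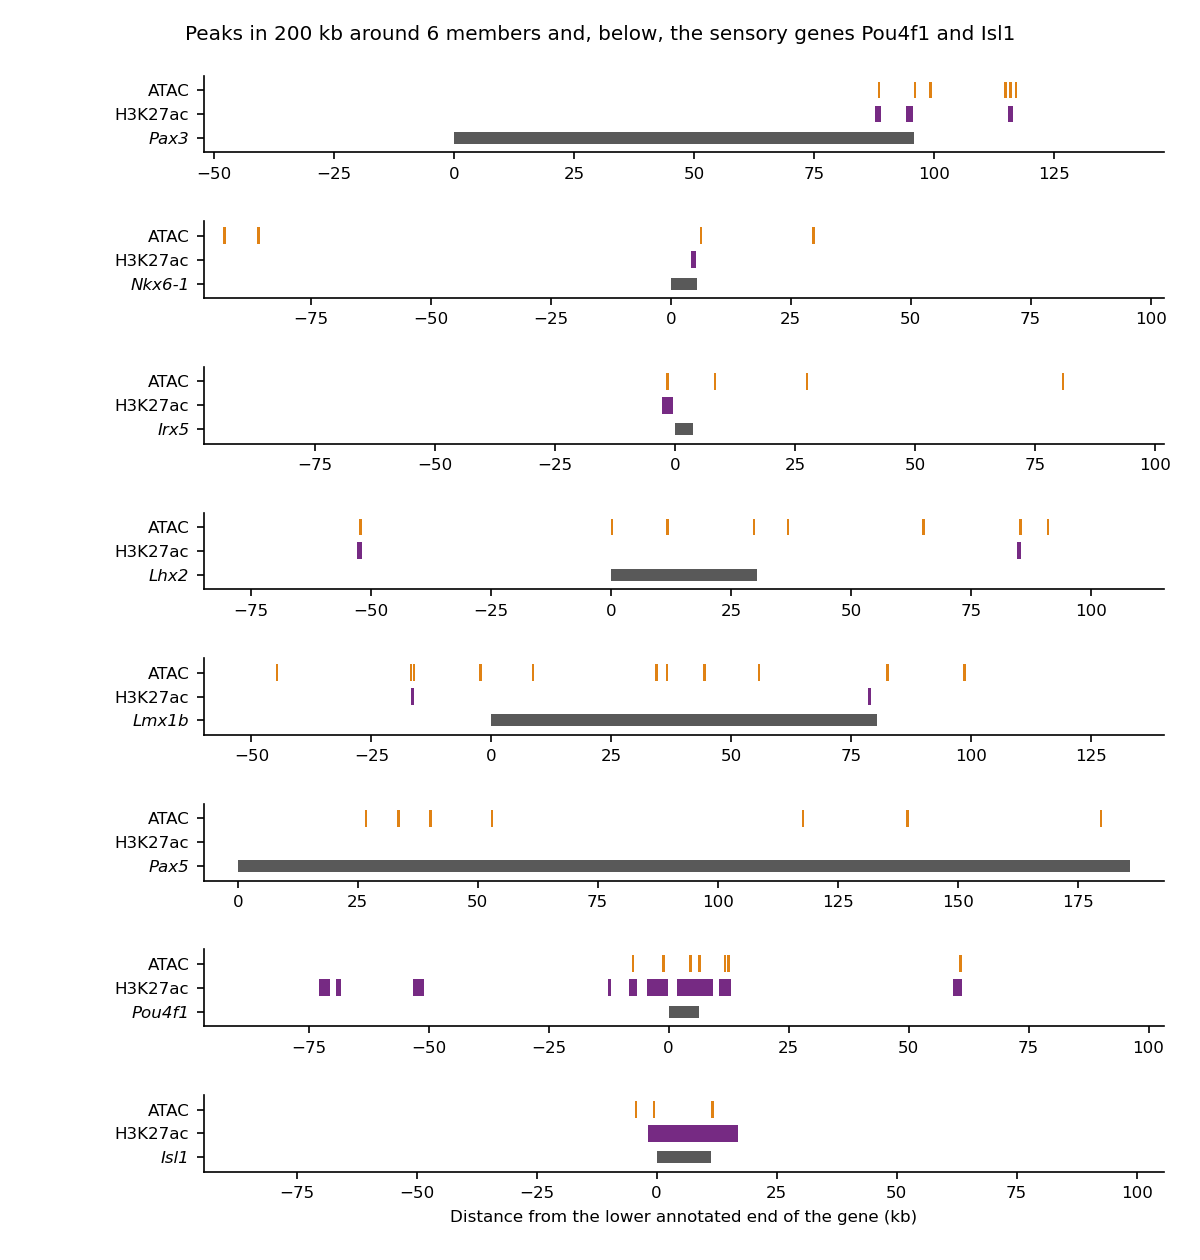
ATAC peaks (orange) and H3K27ac peaks (purple) in the 200 kb centred on Pax3, Nkx6-1, Irx5, Lhx2, Lmx1b and Pax5 and on the sensory neuron genes Pou4f1 and Isl1, by distance in kb from the gene's lower annotated end; grey bars are genes, and peaks are drawn at least 0.5 kb wide. The Pax5 window holds 7 ATAC peaks and no H3K27ac, while at Isl1 1 H3K27ac peak of 18794 bp covers the whole gene.

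Counting ends, the inside of the gene and distal elements together, 52 of 54 members (96.3%) had an ATAC peak, against 75.6% of all genes. Of these, 43 (79.6% of the members) had no H3K27ac peak in any of the 3 places, against 18.0% of all genes. The 9 members with H3K27ac in at least 1 place were Pax3, Pax8, Nkx6-1, Irx1, Irx5, Irx6, Lhx2, Lmx1a and Lmx1b. ATAC peaks inside the gene were found in 25 members (46.3%), against 32.0% of all genes, and H3K27ac peaks inside in 3 (5.56%), against 15.4% of all genes.

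H3K27ac was also far from most members. The distance from the gene to the nearest H3K27ac peak had a median of 64.7 kb over the 54 members and 0 kb over all genes. Among genes with ATAC alone at an end it was 61.6 kb for the 31 members and 24.6 kb for all 2769 such genes. Among genes with neither mark it was 74.1 kb for the 20 members and 75.5 kb for all 8336, so the medians in that state were close. A large distance was not particular to the members. For 52 further homeobox genes of other lineages, compared below, the median was 50.6 kb. It was 66.5 kb for those with ATAC alone at an end and 46.3 kb for those with neither mark. Only Pax3, Nkx6-1, Irx5, Lhx1, Lhx9, Lmx1a and Lmx1b lay within 10 kb of an H3K27ac peak. The gaps for Lhx1 and Lhx9 were 3737 and 7733 bp. The other 47 of 54 members (87.0%) lay over 10 kb away, against 38.6% of all genes and 82.7% of the 52 other lineage genes. Among genes with ATAC alone at an end, 28 of 31 members (90.3%) did so, against 68.1% of all such genes. Among genes with neither mark, 19 of 20 members did, against 78.8% of all genes in that state. Over 100 kb from any H3K27ac peak lay 15 members, among them Pax1, Irx3, Nkx2-9, En1 and Otx1. The share of all genes over 100 kb was not counted, and the 75th percentile was 108 kb for members and 54.4 kb for all genes.

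**Figure D4:**
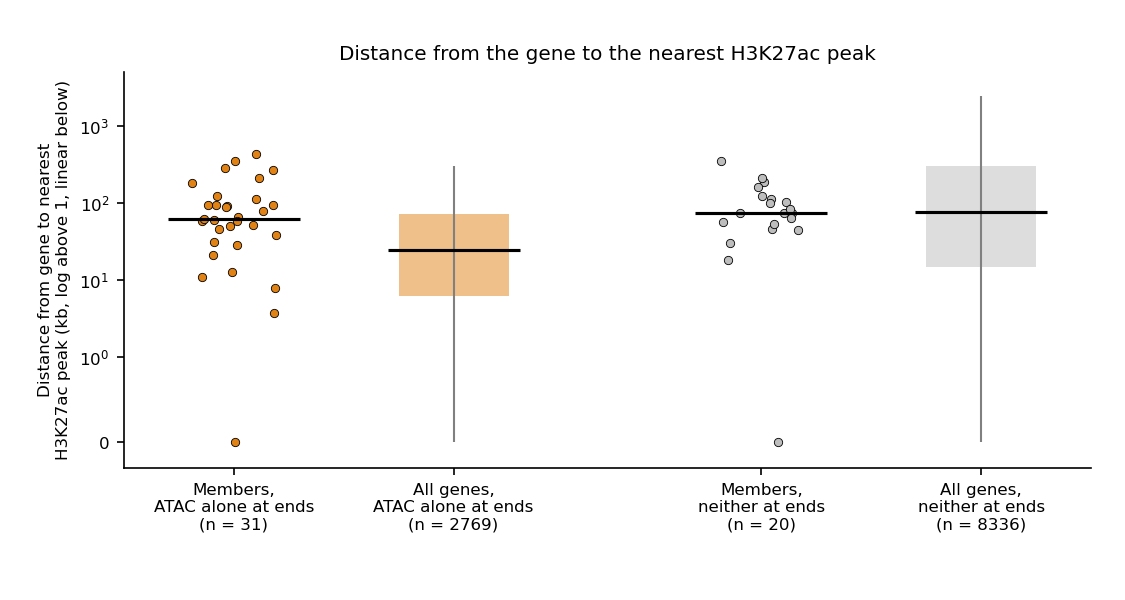
Distance in kb from the gene span to the nearest H3K27ac peak (log scale above 1 kb, linear below), for members (points, line at the median) and all protein-coding genes (box from the 25th to the 75th percentile, line at the median, whisker from the 5th to the 95th). With ATAC alone at the ends the members' median is 61.6 kb and that of all genes 24.6 kb, and with neither mark they are 74.1 and 75.5 kb.

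Promoter sequence, which the choice of genes did not use, had a higher median of CpG in members than in all genes with the same end state. The 40 listed member promoters had a median of 16.5 CpG in 300 bases, against 13 over 17492 genes. This was below the median of 20 for 33 further homeobox genes of other lineages and of 21 for 23 homeobox genes of sensory neurons or wide expression. For the 23 members with ATAC alone at an end the median was 17 CpG, against 13 for all 2138 such genes. For the 16 members with neither mark it was 15.5 CpG, against 3 for all 6677 genes in that state, and none of these 16 had fewer than 4. Nkx6-1, the acetylated member with a listed promoter, had 40, and the median over 8430 genes with both marks was 22. The bases TAAT, the core of many homeodomain binding sites, were found on either strand (as TAAT or ATTA) in 24 of the 40 promoters (60.0%) and in 52.7% of all 17492, which says nothing of binding.

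**Figure D5:**
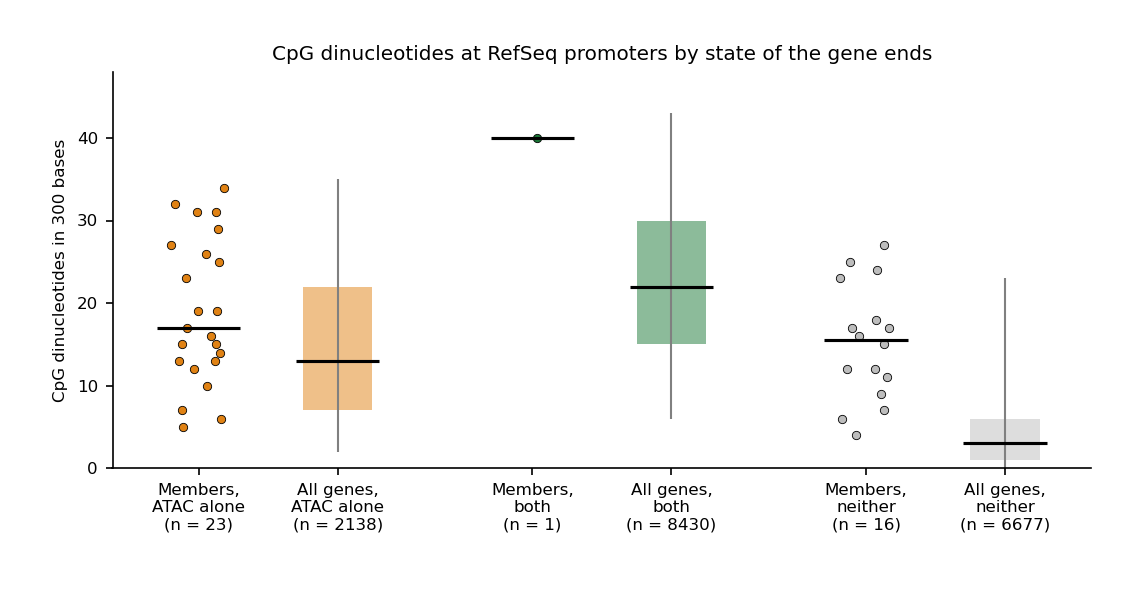
CpG dinucleotides in 300 bases of RefSeq promoter by the state of the gene ends, for 40 members (points, line at the median) and all genes with a listed promoter (box from the 25th to the 75th percentile, line at the median, whisker from the 5th to the 95th). Members with neither mark have a median of 15.5, and all genes in that state have 3.

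Other homeobox genes were scored the same way for comparison, with no test of the differences. Of 52 further homeobox genes of other lineages, such as Emx2, Pitx1 and Msx1, 29 (55.8%) were open without acetylation at an end and 5 (9.62%) were acetylated, close to the 57.4% and 5.56% of the members. Of 32 homeobox genes expressed by sensory neurons or widely, 2 (6.25%) were open without acetylation and 26 (81.3%) were acetylated, and Meis1, with 7, had the most acetylated distal ATAC peaks of that list. Of 39 Hox genes, 3 (7.69%) were open without H3K27ac and 29 (74.4%) were acetylated. Open ends thus made up a like share of the members (61.1%) and of the Hox genes (59.0%), while acetylated ends made up 5.56% and 74.4%. Evx1 and Evx2, which flank Hox clusters, were 73065 and 21251 bp from the nearest H3K27ac peak. A distal ATAC peak was assigned to 48 of the 54 members and all 32 genes of the sensory list, with medians of 3 and 4 per gene and 2.75 and 2.87 per 100 kb of nearest sequence. The 52 other lineage genes had fewer: 35 (67.3%) had a distal ATAC peak, with a median of 1 per gene and 2.1 per 100 kb. The share of distal ATAC peaks with H3K27ac was 4.17% for the members, 2.41% for the other lineage genes, 38.8% for the sensory list and 68.4% for the Hox genes. Members were not independent units either, since 9 of them lie in 4 clusters within 100 kb of each other: the 3 Dlx pairs and Nkx2-1, Nkx2-9 and Pax9.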

How the data were processed

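The authors deposited 1 consensus peak list per assay, whose values are start and end positions of peaks in bp, without signal, score or p-value. Per the submitters' processing notes the build was mm10 and the tools included MACS2 and bedtools (versions not given), Bowtie2 2.3.5.1 and cutadapt 1.18. How the consensus over the 2 samples was formed, and with which thresholds, is not given in the sources used here. Per the labels' protocols, each preparation used 50000 fixed cells and at most 15 PCR cycles.

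Start positions were read as counted from 0 and are printed from 1. Gene spans and promoters came from RefSeq GRCm38.p6, and 1 gene of a comparison list matched through a synonym. A peak inside a gene has its midpoint in the span and is not at that gene's end; distances of distal peaks run from the midpoint. Where RefSeq lists several starts, the outermost promoter was used for sequence and any start for peaks. Python 3.11.15, pandas 2.3.3 and SciPy 1.17.1 were used, and the scoring was checked on simulated peaks. The members, the comparison lists and the families were chosen with earlier results of these data known. Some genes of the marker list for glia and neural crest are not reported here, and its counts leave them out. Every member was accounted for; genes outside the list were named only as a marker, as a neighbour sharing a peak, or as comparison genes, of which Emx2, Pitx1 and Msx1 serve as examples by name only. Alternatives for the window, the peaks used, the overlap and the assignment are given with the closing limits.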

Additional observations from a re-analysis of the deposited data

How the results depend on the processing

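No paired analysis was possible because each assay has 1 consensus list, and for the same reason no replicate could be left out. Members open without H3K27ac numbered 22 of 40 with annotated starts only and 26 to 41 of up to 54 with windows of 0.5 or 2.5 kb, a peak anywhere in the gene, members apart from other genes or 1 member per cluster. The share of all genes in these settings was 11.4% to 15.25%, and for the last 2 settings all genes were kept. With the wider 50% of each list, 21 members were open (38.9%, against 54.3% of all genes), 20 of them without H3K27ac (37.0%, against 23.9% of all genes), so these counts rest in part on narrow peaks. Acetylated members numbered 1 of 40 with starts only (51.6% of all genes), and 5 where a peak at any place in the gene counted (55.5% of all genes). ATAC peaks at member ends with H3K27ac numbered 1 of 59 with a window of 2.5 kb, 2 of 40 where an H3K27ac peak within 1 kb sufficed, and 0 with 50% of the peak covered or 0.5 kb. At all gene ends the share in these settings was 65.95% to 76.7%. Distal ATAC peaks of members numbered 64 with the wider 50%, and those with H3K27ac numbered 3 with the wider 50%, 4 with assignment within 50 kb and 11 within 500 kb, 3.13% to 5.24% of the distal peaks over all alternatives. For all genes that share was 19.9% to 27.3%. Depth is unknown, so a missing peak is not shown to be an absent mark.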
